A study of Rattus norvegicus with 3 samples.

Results

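A set of 36 genes through which white blood cells adhere, signal, move and make oxidants was read on 3 whole rat genome arrays, to ask how broad the blood cell signal in a culture of marrow mesenchymal stem cells (MSCs) was. Members were named for their known use in leukocytes, with earlier results of these data known. A probe belonged to a member when its RefSeq accession in the array design led to that rat gene symbol. A named probe was found for 28 of the 36 members, and 27 had a value on all arrays, out of 13235 genes with a value in the series. Cd53, Itgax, Selplg, Pik3cg, Lsp1, Was, Dock2 and Ikzf1 had no named probe, and the only probe of Alox5 was left out because its spot on 1 array was called an outlier by the scanner software. The series compared MSCs with the osteosarcoma line COS1NR and the malignant fibrous histiocytoma line MFH1NR, all of strain F344. MSCs were grown out of femur bone marrow as a monolayer on plastic, were not sorted on surface markers per the study's text, and were kept in medium richer in serum than that of the lines. COS1NR and MFH1NR are 1 line each, raised from tumors induced with 4-hydroxy quinolone 1-oxide (a chemical carcinogen) and carrying a p53 mutation per the methods. Age, passage and the number of animals behind the MSCs were not given in the sources used here. Each cell type was hybridized to 1 array in 1 colour, so there were no replicates, no test could be made, and every difference is one between arrays. The arrays of both sarcoma lines sat on 1 slide and that of MSCs on a different one, so that a slide effect and a cell type effect cannot be told apart wherever MSCs are compared.

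As background, CD45 (Ptprc) is the phosphatase that marks nearly all nucleated blood cells, and the beta2 integrins pair the chain CD18 (Itgb2) with an alpha chain to let these cells hold on to their targets. Engaged Fc receptors and integrins are read by Src and Syk kinases, which feed adaptors, phospholipase C and Rac, and these in turn drive actin assembly and the oxidase that makes superoxide in phagocytes. Cultured MSCs are by common definition free of CD45 and CD11b (Itgam), while macrophages of the marrow also hold on to plastic.

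The intensity given for each spot was background-subtracted and not scaled between arrays. For ratios, each intensity was divided by the 75th percentile of its own array, which was 589 in MSCs against 774 in COS1NR and 994 in MFH1NR. A spot was taken as detected when the software called it well above background, which held in MSCs for 59.7% of 43379 spots, against 56.6% in COS1NR and 58.2% in MFH1NR. A probe that was dim on one array gave a lower limit of the fold ("at least"). The limit was set by the lowest intensity well above background on that array or, where higher, by the dim probe's own intensity. This lowest intensity was 18.0, 29.4 and 30.1 in the same order. The software's own error of the detected member spots had a median of 10.1% and reached 18.2%. Dim member spots had larger errors, such as 99.6% for Cyba in COS1NR at 6.16, so dim intensities given below are not measured levels. Replicate spots gave a ratio a spread of 0.07 in log2, and probes of one gene differed in their log2 ratio by a median of 0.28 for COS1NR and 0.32 for MFH1NR, neither of which covers cultures or labeling.

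The leukocyte genes were almost all detected in MSCs and mostly dim in the sarcoma lines. Well above background were 26 of 27 members in MSCs against 69.7% of all genes, 11 in COS1NR against 65.7% and 8 in MFH1NR against 66.7%. Above both lines by at least 2-fold in MSCs were 23 of 27, against 9.72% of all genes. The set was chosen with earlier results of these data known, so its contrasts with all genes are a description and not a test. Taken line by line, 24 members were higher in MSCs than in COS1NR (14.6% of all genes) and 25 higher than in MFH1NR (16.0%). The difference was at least 10-fold in both lines for 13 members (6 with normexp background correction), against 2.36% of all genes, and 13 members were well above background in MSCs only, against 4.42%. No member was at least 2-fold lower in MSCs than in both lines (8.09% of all genes) or than in MFH1NR (14.3%), and 2 were lower than in COS1NR (15.1%), namely Plcg2 and Fgr. With each dim probe at its bound, the median log2 ratio to MSCs of the 26 members with a ratio was -3.42 in COS1NR and -4.75 in MFH1NR, while all genes had medians of 0.11 and 0.01. With normexp background correction, which adds 50 to each intensity, the members' medians were -2.62 and -3.43, and without scaling that in MFH1NR was -3.99. All folds and bounds given below hold for the main setting, and they were over 1.5 times smaller with normexp for 16 of 26 members in COS1NR and 20 of 26 in MFH1NR, by up to 3.08 times, and 1.69 times smaller without scaling for all 26 in MFH1NR. Those still past 10-fold against both lines with normexp were Fcgr2b, Fcer1g, Lcp2, Vav1, Coro1a and Ncf1. In such bulk RNA, fewer cells of a type and less RNA per cell cannot be told apart.

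**Figure D1:**
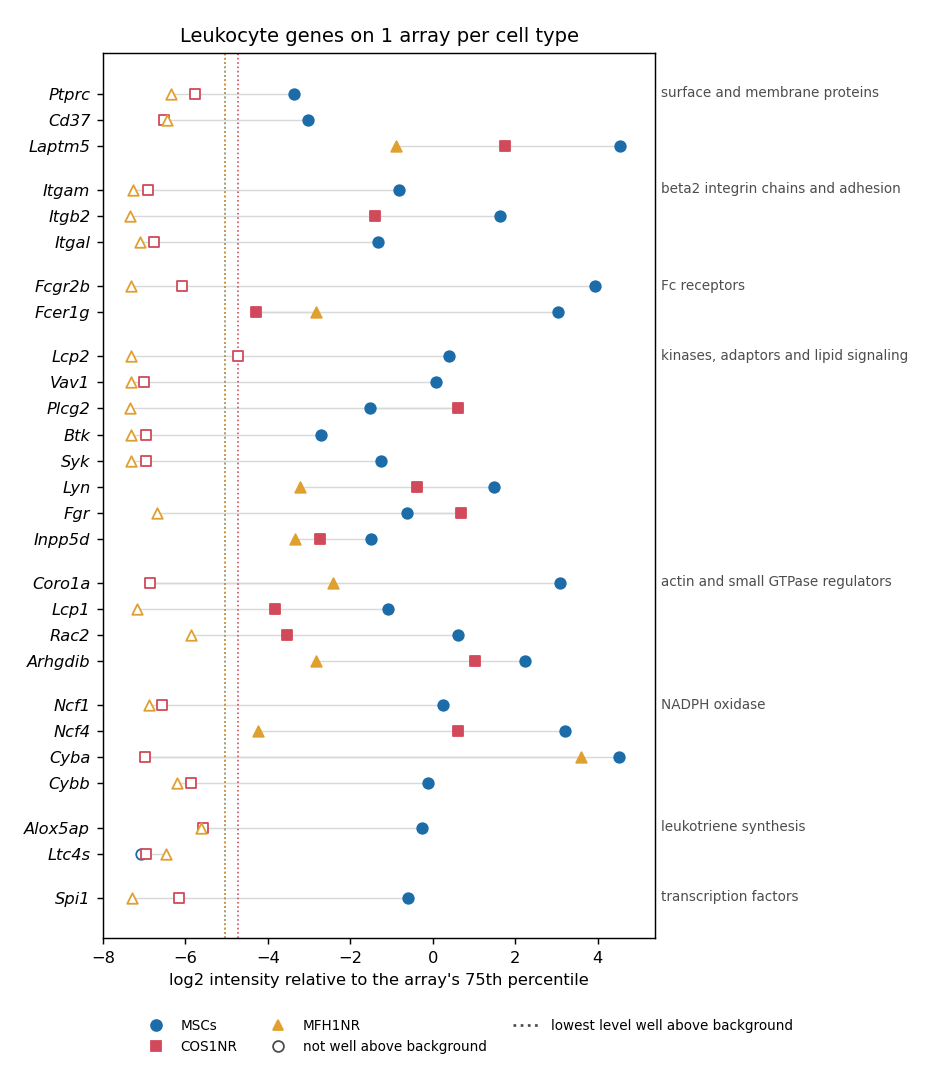
The log2 intensity of each measured leukocyte gene over the array's 75th percentile (x axis), by role, with 1 point per array: circles for MSCs, squares for COS1NR and triangles for MFH1NR. Open symbols are probes not well above background, and dotted lines mark the lowest level well above background on each array. The MSC point lies to the right in all genes but Plcg2, Fgr and Ltc4s.

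All 3 measured surface and membrane proteins were higher in MSCs than in either line. CD45 (Ptprc) had an intensity of 57.5 in MSCs against 14.3 in COS1NR and 12.2 in MFH1NR, and was well above background in MSCs only. Its MSC level was at least 2.57-fold that of COS1NR and at least 3.23-fold that of MFH1NR, and its other probes, at 64.9 and 78.5 in MSCs, gave bounds of 2.90 and 3.51 for COS1NR and of 3.64 and 4.41 for MFH1NR. Cd37, a tetraspanin of blood cells, was likewise found in MSCs only, at 72.0 against 8.43 in COS1NR and 11.4 in MFH1NR, with bounds of 3.22-fold and 4.04-fold. Laptm5, a lysosomal membrane protein of blood cells, was detected on all arrays, at 13864 in MSCs against 2605 in COS1NR and 539 in MFH1NR. Its MSC level exceeded that of COS1NR 6.99-fold and that of MFH1NR 43.4-fold. CD45 thus passed the background in MSCs by all 3 of its probes, with folds that the dim sarcoma spots leave as lower limits. Without scaling between arrays, the bounds of its main probe fell under 2-fold, at log2 ratios of -0.97 and -0.94.

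All 3 measured members among the beta2 integrin chains were higher in MSCs than in either line. CD11b (Itgam), the alpha chain of the complement receptor of macrophages and neutrophils, had intensities of 336 in MSCs against 6.44 in COS1NR and 6.45 in MFH1NR, which gave at least 15.0-fold and at least 18.9-fold (6.59-fold and 7.02-fold with normexp). CD11a (Itgal), the alpha chain of the receptor for ICAM-1 on lymphocytes and other leukocytes, had 234, 7.12 and 7.22, for bounds of 10.45-fold and 13.1-fold. Their shared partner CD18 (Itgb2) was also found in COS1NR, at 292 against 1832 in MSCs, an 8.23-fold difference, but not in MFH1NR, at 6.16 (at least 103-fold). A further alpha chain of this family outside the 36 genes, CD11d (Itgad), went the other way in COS1NR, with 21.3 in MSCs, 66.1 in COS1NR, 2.36 times the MSC level, and 24.2 in MFH1NR, where it was not well above background.

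The Fc receptor genes, which bind the tail of antibodies, showed some of the widest gaps. Fcgr2b, the inhibitory receptor for IgG, had an intensity of 9103 in MSCs against 11.4 in COS1NR and 6.18 in MFH1NR, at least 407-fold and at least 511-fold apart. Fcer1g, the signaling chain that activating Fc receptors share, had 4830 in MSCs against 39.8 in COS1NR and 139.9 in MFH1NR, a 159-fold and a 58.3-fold difference. Both sarcoma lines held a low but detected level of Fcer1g, the higher one in MFH1NR.

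Of the 8 measured kinases, adaptors and lipid signaling genes, 6 were higher in MSCs than in either line. Lcp2, the SLP adaptor of immune receptors, had an intensity of 777 in MSCs against 29.4 in COS1NR and 6.24 in MFH1NR, with bounds of 34.7-fold and 43.6-fold, and its second probe, at 1405 in MSCs, gave 62.8-fold and 78.8-fold. Vav1, the exchange factor that loads Rac in blood cells, had 628, 6.06 and 6.19 in the same order, with bounds of 28.1-fold and 35.3-fold. Syk, the kinase that docks on phosphorylated Fc receptor chains, had 245.6, 6.23 and 6.27, with bounds of 11.0-fold and 13.8-fold. These genes and Btk were detected in MSCs alone. Btk, the Tec kinase of B cells and myeloid cells, was at 90.4 in MSCs against 6.18 in COS1NR and 6.23 in MFH1NR, for bounds of 4.04-fold and 5.07-fold.

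Lyn and Inpp5d were detected on all arrays. Lyn, a Src kinase of blood cells, had an intensity of 1662 in MSCs against 590 in COS1NR and 107 in MFH1NR, 3.70-fold and 26.1-fold lower in the lines, and its second probe gave 4.44-fold and at least 25.5-fold. For Inpp5d, the lipid phosphatase that brakes PI3K signaling in blood cells, the main probe had 208.6, 117 and 97.5, a 2.34-fold and a 3.61-fold difference. Its other probes were detected in MSCs only and gave wider gaps, at least 19.9-fold and 24.9-fold by the one at 444 in MSCs and at least 3.87-fold and 4.86-fold by the one at 86.6. The size of the Inpp5d difference thus depended on the probe, and its direction did not. The 2-fold difference of Inpp5d from COS1NR by the main probe was lost without scaling and with normexp background correction, at log2 ratios of -0.83 and -0.94.

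Plcg2 and Fgr were the members that were higher in COS1NR than in MSCs. Plcg2, the phospholipase C gamma of blood cells, had an intensity of 206.6 in MSCs against 1189 in COS1NR and 6.07 in MFH1NR. COS1NR thus held 4.38 times the MSC level, while MSCs were at least 11.6-fold above MFH1NR. Fgr, a Src kinase of myeloid cells, had 383 in MSCs against 1241 in COS1NR and 9.60 in MFH1NR, 2.46 times the MSC level in COS1NR and an MSC level at least 21.5-fold that of MFH1NR. Between the sarcoma lines, which shared a slide, these genes were at least 50.8-fold and at least 53.0-fold higher in COS1NR.

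**Figure D2:**
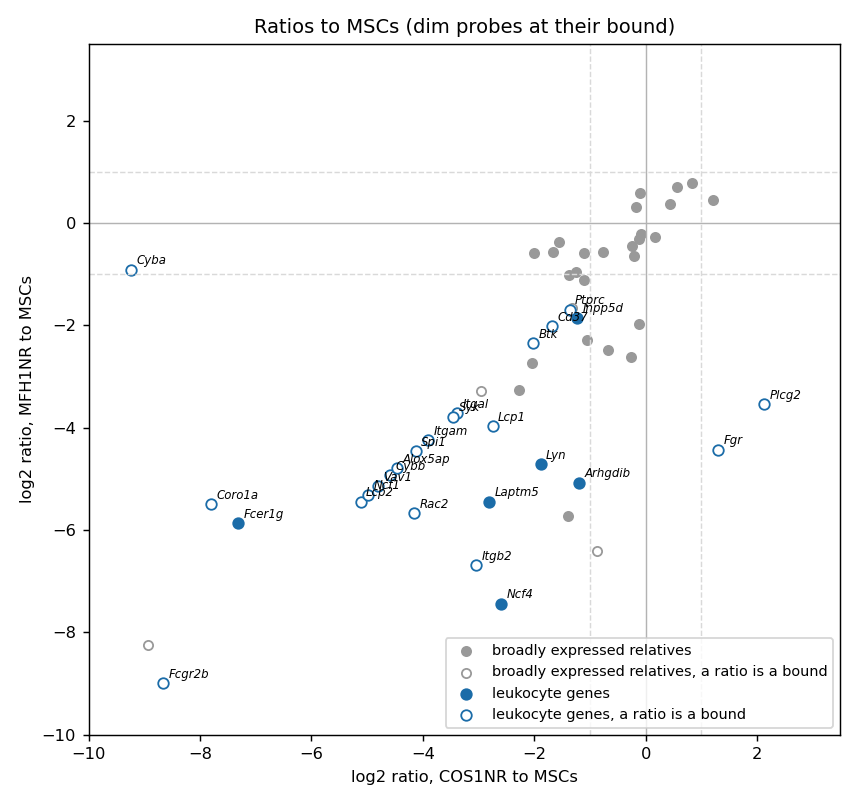
Log2 ratio to MSCs in COS1NR (x axis) and in MFH1NR (y axis) for each leukocyte gene with a ratio (blue, named) and for the broadly expressed relatives described further on (grey), with open symbols where a ratio is a bound and dashed lines at 2-fold. Plcg2 and Fgr are the blue points right of 0, and Cyba lies between the dashed lines in MFH1NR. The diagonal row of open blue points comes from genes dim in both lines. Their bounds share the same floors, but for Lcp2 in COS1NR, whose own intensity lay just above.

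The genes of actin and small GTPase control were higher in MSCs than in both lines in 4 of 4 measured. Coro1a, the coronin of blood cells that binds branched actin, had an intensity of 5008 in MSCs against 6.66 in COS1NR and 187.5 in MFH1NR, at least 224-fold and 45.1-fold lower in the lines. Rac2, the Rac GTPase of blood cells, had 905, 66.9 and 17.0, which were 17.8-fold and at least 50.8-fold lower. Lcp1 (L-plastin), which bundles actin filaments in leukocytes, had 279, 54.6 and 6.84, a difference of 6.72-fold from COS1NR and of at least 15.7-fold from MFH1NR. Arhgdib, the blood cell inhibitor that keeps small GTPases off the membrane, was the least different from COS1NR, at 2770 in MSCs against 1586 in COS1NR and 139 in MFH1NR. It was 2.29-fold above COS1NR and 33.6-fold above MFH1NR, and the former fell under 2-fold without scaling and with normexp, at log2 ratios of -0.80 and -0.93. In this group COS1NR kept 3 detected genes and MFH1NR kept 2, Coro1a and Arhgdib.

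The NADPH oxidase of phagocytes moves electrons through the membrane pair gp91phox (Cybb) and p22phox (Cyba) once p47phox (Ncf1) and p40phox (Ncf4) join them from the cytosol. Cybb had an intensity of 541 in MSCs against 13.3 in COS1NR and 13.4 in MFH1NR, at least 24.2-fold and 30.4-fold apart. Ncf1 had 707, 8.16 and 8.36, with bounds of 31.6-fold and 39.7-fold. Ncf4 was detected everywhere, at 5453, 1183 and 53.0, and was 6.05-fold and 174-fold higher in MSCs. The catalytic chain and p47phox were thus above background in MSCs only. Cyba, which also serves oxidases outside blood cells, differed from the other subunits. Its intensity of 13537 in MSCs was close to the 12148 of MFH1NR, a 1.88-fold difference after scaling. COS1NR had 6.16 by the only probe, with an error of 99.6%, so that MSCs were at least 605-fold above it.

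Leukotriene synthesis starts at the lipoxygenase Alox5 with its helper Alox5ap, and Ltc4s then makes leukotriene C4. Alox5ap had an intensity of 492 in MSCs against 16.3 in COS1NR and 20.1 in MFH1NR, with bounds of 22.0-fold and 27.6-fold. Ltc4s was not well above background on any array, at 4.35, 6.24 and 11.1, and was the only measured member without a ratio. The helper of the pathway was thus detected in MSCs, while the C4 synthase was not.

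Spi1 encodes PU.1, the ETS factor that macrophages and B cells need to form, and it was found in MSCs only, at 391 against 10.9 in COS1NR and 6.33 in MFH1NR. Its MSC level was at least 17.5-fold that of COS1NR and at least 22.0-fold that of MFH1NR (7.12-fold and 8.18-fold with normexp). The table of RefSeq promoters (build GRCr8, from 250 bases before to 50 after each gene's start) held 22 of the 36 members, 15 of them with a value on the arrays. PU.1 sites share the core GAGGAA, which reads as TTCCTC from the other strand, and these letters stood on either strand in 15 of the 22 promoters (68.2%), in 10 of the 15 (66.7%), and in 27.6% of all 33469 promoters of the table. Shown here are the 100 bases before the start of the members that were above both lines by at least 2-fold in MSCs and had the whole core in that stretch, 5′ to 3′ on the gene's strand, with the core of the match in capitals.
Cd37, chr1:104860785-104860884, minus strand: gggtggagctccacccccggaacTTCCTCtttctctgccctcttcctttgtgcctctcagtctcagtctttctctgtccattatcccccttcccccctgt
Itgam, chr1:192089492-192089591, plus strand: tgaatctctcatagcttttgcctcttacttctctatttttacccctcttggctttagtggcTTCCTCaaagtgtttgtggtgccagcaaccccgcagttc
Laptm5, chr5:148371780-148371879, plus strand: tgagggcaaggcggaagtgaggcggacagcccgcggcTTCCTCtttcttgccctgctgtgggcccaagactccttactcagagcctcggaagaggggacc
Vav1, chr9:2248855-2248954, plus strand: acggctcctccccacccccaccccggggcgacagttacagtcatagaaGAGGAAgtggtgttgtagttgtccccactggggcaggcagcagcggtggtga
Syk, chr17:12813274-12813373, minus strand: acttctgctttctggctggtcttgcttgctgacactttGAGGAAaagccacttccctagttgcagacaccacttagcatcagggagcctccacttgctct
Cybb, chrX:16065066-16065165, minus strand: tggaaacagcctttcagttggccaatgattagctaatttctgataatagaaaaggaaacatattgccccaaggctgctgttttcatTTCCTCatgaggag
These letters are a description of the sequence, and no binding was measured. No match was found in the table's window for Coro1a, Fgr, Ncf1, Cyba and Ltc4s among the measured members.

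The sarcoma lines differed from each other in 12 members, and most of these were higher in the osteosarcoma line. At least 2-fold higher in COS1NR than in MFH1NR were 9 of 27 members, against 10.7% of all genes, namely Laptm5, Itgb2, Plcg2, Lyn, Fgr, Lcp1, Rac2, Arhgdib and Ncf4. The opposite held for Fcer1g, Coro1a and Cyba, 3 of 27 against 8.83% of all genes. Ncf4 was 28.7-fold and Arhgdib 14.7-fold higher in COS1NR, both detected in both lines. Cyba was at least 322-fold and Coro1a at least 4.97-fold higher in MFH1NR. The 13 members detected in MSCs alone, from CD45 to PU.1, gave no ratio between the lines.

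Many members have relatives of the same protein family that most cell types use, and 37 such relatives were listed, of which 32 had a value. The relatives were detected in MSCs in 30 of 32 cases, in COS1NR in 27 and in MFH1NR in 27. Above both lines by at least 2-fold in MSCs were 9 of 32, against 9.72% of all genes. These were Ptprf, Cd81, Coro1c, Pls3, Blnk, Vav2, Zap70, Fyn and Podxl, of which Blnk and Zap70 are themselves used mostly by blood cells. Without scaling, or at 3-fold, the count was 4, beside 6.39% and 6.28% of all genes. The relatives' median log2 ratio to MSCs was -0.81 in COS1NR and -0.61 in MFH1NR, where all genes had 0.11 and 0.01. The median in MFH1NR turned to 0.14 without scaling between arrays. In the main setting the relatives were thus shifted toward MSCs as well, by less than the members. Rac1, the Rac of all tissues, had log2 ratios of -0.18 in COS1NR and 0.32 in MFH1NR, where Rac2 had -4.15 and at most -5.67. Coro1b had -0.24 and -0.44, where Coro1a had at most -7.81 and -5.49. Arhgdia had -0.20 and -0.65, where Arhgdib had -1.20 and -5.07. In these families the blood cell gene had a wider gap to both sarcoma lines than its widely used relative. A bound of a member can place it below its relative but never above it, so only pairs with both genes well above background in MSCs and in the line were counted. The member had the lower ratio to MSCs in 8 of 11 such pairs in COS1NR and in 7 of 7 in MFH1NR, and some of these pairs share a gene. The exceptions were in COS1NR, where Plcg2 stood above Plcg1 (2.13 against 0.83), Fgr above Src (1.30 against -1.66) and Lyn above Fyn (-1.89 against -2.27). Among the pairs with a bound, the order of Ptprc and Ptprf and of Syk and Zap70 is unknown in both lines. The same holds for Btk beside Bmx and Cybb beside Nox4, as these relatives gave no ratio. In MFH1NR the order of Ptprc and Ptprk and of Cd37 and Cd151 is also unknown.

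**Figure D3:**
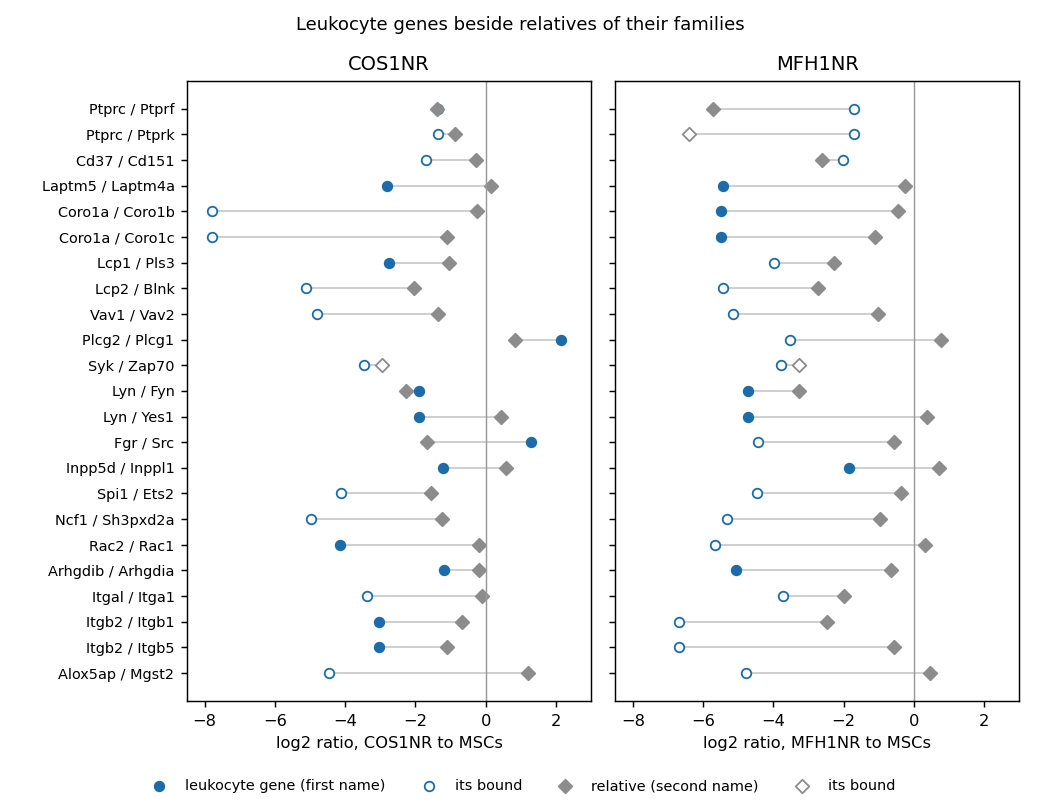
Log2 ratio to MSCs of each leukocyte gene (blue circle, first name) and of a relative of its family (grey diamond, second name), in COS1NR on the left and in MFH1NR on the right, with open symbols for bounds. Blue lies right of grey in COS1NR for Plcg2, Fgr, Lyn beside Fyn and, by its bound, Ptprc beside Ptprf, and in MFH1NR, by their bounds, for Ptprc beside both relatives and Cd37 beside Cd151.

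Marker genes of separate blood lineages were then counted on the same arrays, and their part in the differences of the leukocyte genes was not tested. These lists too were chosen with earlier results of these data known. Macrophage markers were higher in MSCs than in both lines in 14 of 17 measured genes. Lyz2, the lysozyme of macrophages, had an intensity of 32304 in MSCs against 23.5 in COS1NR and 15.5 in MFH1NR, and C1qa, a chain of complement C1q, had 5450 in MSCs and was dim in both lines. Tyrobp, the signaling partner of TREM receptors, had 11921 in MSCs and was 311-fold and 328-fold lower in the lines. By ratio or bound, the lowest of the 14 were Cd163, Cd68, 2.98-fold above COS1NR, and C1qc, 7.39-fold above it. Cd163, at 57.3 in MSCs, was dim in both lines. Its bounds of 2.56-fold and 3.21-fold are lower limits, so its true place among the 14 is unknown. Marco, Mpeg1 and Cx3cr1 were dim on all arrays. The summed scaled intensity of the list was 176 in MSCs against 9.74 in COS1NR and 4.76 in MFH1NR. Osteoclast markers, whose cells come from the same precursors, were higher in MSCs in 4 of 5, led by Acp5 at 24581 in MSCs, with sums of 67.3, 0.22 and 7.34.

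A smaller part of the lymphocyte and granulocyte markers than of the macrophage markers was above both lines by at least 2-fold in MSCs. For all genes this share was 9.72%, and the lists are short, so small counts are not read as a result. Of 12 measured T cell markers, 7 were detected in MSCs, and 3 of those were at least 2-fold higher there than in both lines: Zap70 at 172.9, Cd8a at 68.5 and Lat at 61.1. Cd3d, a chain of the T cell receptor complex, was detected on every array, at 452 in MSCs against 893 in COS1NR and 627 in MFH1NR, while its partners Cd3e, Cd3g and Cd247 were dim on all. Lck (23.1 in MSCs), Cd6 (136.3) and Cd8b (46.9) completed the list. The summed scaled intensity of 1.68 in MSCs lay below the 2.05 of COS1NR and above the 0.97 of MFH1NR. Cd3d, the brightest of the list on every array, was the largest part of each sum. Of 6 measured B cell markers, Blk (46.9) and Pou2af1 (20.0) were detected in MSCs, the first higher there than in both lines and the second lower, and Cd79b and Cr2 were dim on all arrays. The B cell sums were 0.16 in MSCs, 0.22 in COS1NR and 35.4 in MFH1NR, the last carried by Fcrla, at 35084 there and dim on the other arrays. Of 9 granulocyte markers, Camp (159.6 in MSCs) and Prtn3 (39.8) were detected in MSCs and none was higher there than in both lines. Elane, Mmp8, Cxcr2 and S100a9 were dim on all arrays, and the sums of the list were 0.41, 1.04 and 0.27 in the order MSCs, COS1NR and MFH1NR. None of 8 natural killer cell markers and none of 7 erythroid markers was above both lines by at least 2-fold in MSCs.

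Other lists were mixed. Mast cell markers were higher in MSCs in 2 of 10 (Cpa3 and Cma1), dendritic cell markers in 2 of 4 (Clec10a and Ccr7), megakaryocyte markers in 1 of 5 and endothelial markers in 3 of 8 (Esam, Kdr and Tie1). The megakaryocyte gene was Pf4, a platelet chemokine, at 8099 in MSCs and dim in both lines. As a check of the label, all 15 stromal markers, among them Thy1, Nt5e, Eng and Pdgfrb, were detected in MSCs, and 10 were higher there than in both lines. Most were also detected in each line, so detection alone does not set the MSC array apart. Thy1 was only 1.78-fold above MFH1NR. The stromal sum was 1248 in MSCs against 165 in COS1NR and 305 in MFH1NR. Of 7 measured markers that cultured MSCs lack by definition, 5 were detected in the MSC culture and higher there than in both lines: CD45, CD11b, Cd14, and the class II genes RT1-Da at 1431 and RT1-Db1 at 965. Cd14 was also well above background in the lines, at 25626 in MSCs, 3387 in COS1NR and 3095 in MFH1NR. Cd34, at 11.4, was not well above background in MSCs. The array labelled MSC thus carried its stromal markers together with most of the blood cell markers the definition leaves out.

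**Figure D4:**
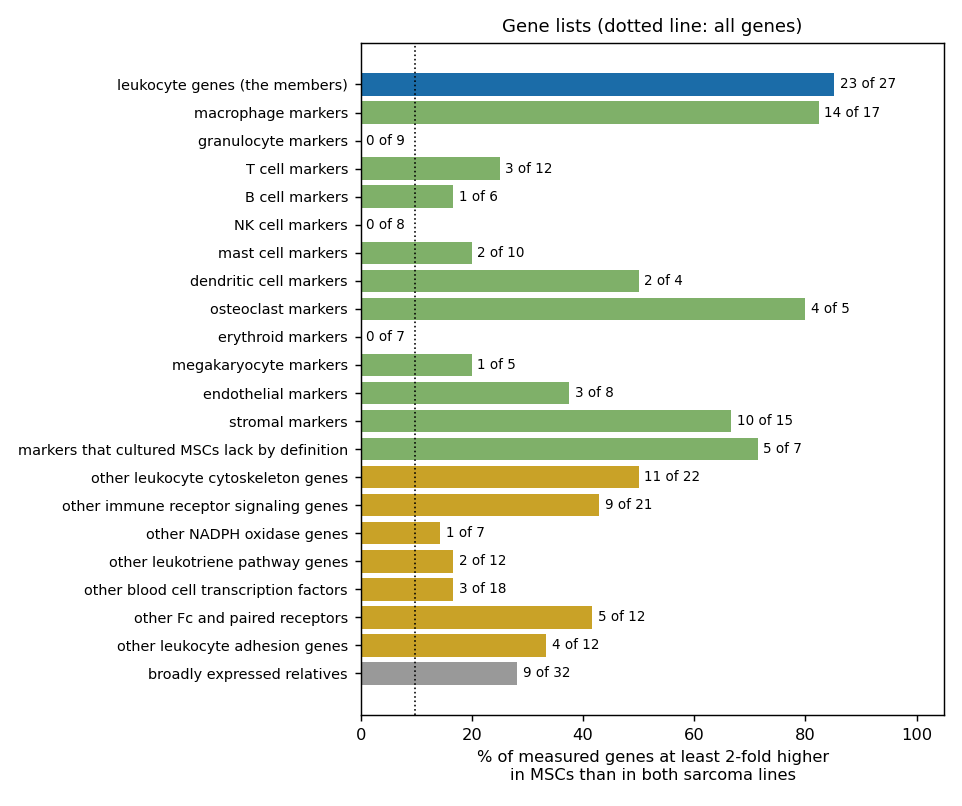
Share of measured genes of each list that were above both sarcoma lines by at least 2-fold in MSCs (x axis, percent), with the count beside each bar and the share of all genes, 9.72%, as a dotted line. Blue is the leukocyte set, green the marker lists, gold further genes of the same pathways and grey the relatives. The leukocyte, macrophage and osteoclast bars are the longest, and granulocyte, natural killer and erythroid lists have no such gene.

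Further genes of the members' own pathways gave the breadth of the pattern. Of 22 other cytoskeleton genes of leukocytes, 11 were higher in MSCs than in both lines and none lower. By ratio or bound, the first were Myo1g (at least 84.9-fold above COS1NR and 52.6-fold above MFH1NR), Fermt3, the kindlin of blood cells, and Fmnl1. Gmfg, Hcls1 and Dock8 stood at the other end. Bounds are lower limits, so the true place of a gene dim in both lines, such as Pstpip1 (at least 10.1-fold and 12.7-fold), is unknown. Of 21 other immune receptor signaling genes, 9 were higher, among them Tyrobp and the adaptor Card9 (at least 36.9-fold and 38.3-fold), and Skap2 was lower. Of 12 other Fc and paired receptors, 5 were higher, the first by ratio or bound being Fcgr1a (7522 in MSCs, at least 336-fold and 422-fold), Lilrb4 and Clec4a1. Among 12 other adhesion genes, 4 were higher, which were Cd48, Icam1, Itgb7 and Jam3. The list of 18 other blood cell transcription factors had 3, namely Runx1, Fli1 and Ebf1. Of 12 other leukotriene and prostanoid genes, Tbxas1 and Hpgds were higher, and of 7 other NADPH oxidase genes Duox2 was higher and Nox1 lower. For all genes, the share higher in MSCs than in both lines was 9.72%.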

How the data were processed

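Agilent 1-colour arrays of the whole rat genome were used, 1 per cell type. According to the file headers, the authors made the deposited intensities with Agilent Feature Extraction 10.5.1.1 (9.1 per the labels), which subtracted background, detrended each array and set values at or below background to a surrogate; the flags for background, outliers and saturation come from the same software. The deposited series table was equal to these intensities on 3 of 3 arrays. RNA kits differ between the labels and the methods.

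Control and outlier spots (187 to 217 per array) were left out, spots of a probe were averaged as log2, and 16669 of 40816 probes were named through RefSeq accessions. A gene was represented by its named probe of highest mean log2 intensity. Groups came from the sample labels. With 1 array each, only values, folds, bounds and counts at 2-fold and 10-fold were computed, and the number of arrays limits the precision. The members and all lists were chosen with earlier results of these data known. Named are all members, up to 3 genes at each end of a list by mean log2 ratio, and the detected T cell, B cell, granulocyte and MSC-negative markers. Further genes, such as those dim on all arrays, were named after their values were seen. Alternatives were other scalings, normexp with an offset of 50 (limma 3.58.1, R 4.3.3), outlier spots, probes, bounds, thresholds and filters. Counting steps were tested on simulated data. Python 3.11.15, numpy 2.4.6, pandas 2.3.3 and matplotlib 3.10.9 were used. Proteins and probe coordinates were not analysed here, and some listed genes are not reported here.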

Additional observations from a re-analysis of the deposited data

Results flagged for a closer look

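Plcg2 and Fgr moved in opposite directions in the sarcoma lines. The log2 ratio of Plcg2 to MSCs was 2.13 in COS1NR and at most -3.54 in MFH1NR, and that of Fgr was 1.30 in COS1NR and at most -4.43 in MFH1NR. With 1 array per line, the difference was not tested.

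The single probe of Alox5 entered no count because the software called its MFH1NR spot an outlier. It had an intensity of 45.4 in MSCs, well above background, 6.11 in COS1NR, not well above background, and 114.8 in the outlier spot of MFH1NR.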

How the results depend on the processing

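All 52 ratios of members to MSCs kept their sign under each of 8 settings of scaling, background, spots, probes, bounds and source. The 2-fold threshold was lost without scaling by Ptprc (-0.97 in COS1NR and -0.94 in MFH1NR), Inpp5d and Arhgdib, and with normexp by the latter genes in COS1NR. The count of members higher in MSCs than in both lines, 23, went to 20 without scaling (6.39% of all genes), to 20 at 3-fold (6.28%) and to 21 with normexp (8.62%), beside 9.72% of all genes for the 23. Without scaling, the median of all genes rose from 0.11 to 0.52 in COS1NR and from 0.01 to 0.79 in MFH1NR, the medians of the members were -3.03 and -3.99, and the relatives had 4 genes higher in MSCs and medians of -0.42 and, turned, 0.14. With the array median, the members had -3.26 and -4.53 and the relatives -0.65 and -0.40. With normexp, 6 members were at least 10-fold higher in place of 13, the members' medians were -2.62 and -3.43, and the relatives had -0.68 in COS1NR. With the mean of all probes, the members had -3.68 and -4.86 and the relatives -0.68 in COS1NR, and with no bounds the members had -4.26 and -5.86 and the relatives -0.72. At 3-fold, 4 relatives were higher in MSCs. Genes detected on all 3 arrays held only 6 members, so the counts became 6 (both lines, beside 8.76% of all genes), 6 and 6 (COS1NR, MFH1NR), 1 at 10-fold, 4 higher in COS1NR than in MFH1NR and 1 the reverse, with medians of -2.24 and -5.26, and -0.47 for the relatives in COS1NR. Leaving Blnk and Zap70 out of the relatives, chosen after seeing the data, gave -0.72 in COS1NR and 7 genes higher in MSCs. The cause of the moves under scaling and probe choice was not tested. No paired analysis was possible because each cell type had 1 array. Dim spots limit the folds of the 13 members seen in MSCs only to lower bounds.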

Other observations

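Some genes of the blood cell lists were bright in 1 sarcoma line, and these were chosen after their values were seen. In MFH1NR, the B cell marker Fcrla had an intensity of 35084 against 14.8 in MSCs and 31.7 in COS1NR, Arhgap9, a GTPase-activating protein of blood cells, had 9773 against 905 and 12.7, and Bin2 had 1068 against 77.8 and 20.9. Irf5, an interferon regulatory factor, had 10267 in MFH1NR against 1180 in MSCs and 625 in COS1NR, and the basophil and mast cell protease Mcpt8 had 1441 against 25.7 and 14.9. In COS1NR, the granulocyte genes S100a8 and Csf3r had 292 and 132, and neither was well above background in MSCs or MFH1NR. Evl, an actin regulator, had 5492 in COS1NR, 2504 in MSCs and 10.9 in MFH1NR.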
